A study of Mus musculus with 32 samples.

Results

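The oxidative phosphorylation genes were taken as every feature whose platform symbol starts with Nduf (complex I), is Sdha to Sdhd (complex II), starts with Uqcr or is Cyc1 (complex III), lies between Cox4 and Cox8 (complex IV) or starts with Atp5 (complex V). The rule gave 73 genes, measured by 100 probes, of 17060 features on the array, where a feature is a named gene with its probes averaged or a probe with no gene name. Complex I held 27 subunits and 4 assembly factors with the prefix Ndufaf, complex II 4 subunits, complex III 8, complex IV 15 and complex V 15. The subunits encoded by mitochondrial DNA lie outside the rule, and Ndufa4, Cox4i2, Atp5g1 and Atp5g2 were not analysed here.

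RNA was taken from liver and spleen of male 129/SvJ mice, aged 18 to 19 weeks, that had been produced by nuclear transfer. The 4 groups were livers of Dll1 clones, livers of wildtype clones, spleens of Dll1 clones and spleens of wildtype clones, each from 4 mice. Each clone's RNA was run on a pair of dye-swapped arrays against a pool from conventional mice matched in strain, sex, age and genotype, and the label of the Dll1 pool gives heterozygotes. Dll1 encodes a ligand of Notch receptors. The protocol gives 6 animals per pool, whereas 4 mouse identifiers are listed, and all 4 mice of a group were set against 1 pool, so any deviation of that pool is part of all 4 values.

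Complexes I to IV form the respiratory chain of the inner mitochondrial membrane. Complex I takes electrons from NADH and complex II from succinate, complex III passes them from ubiquinol to cytochrome c, and complex IV transfers them to oxygen. Complexes I, III and IV pump protons, and complex V, the ATP synthase, uses their return to make ATP. Hepatocytes depend on this machinery for gluconeogenesis and urea synthesis, and most of its nuclear genes are active in every tissue, with a few complex IV subunits that exist as tissue isoforms.

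Each value is a log2 ratio in which the clone is likely on top and the pool below, so a negative value means a lower level in the clone. That direction was taken from how the titles are worded, and the opposite one would swap higher for lower in every result. The swapped arrays were taken as deposited, with no sign turned. The mean ratios of the 73 genes with the clone in Cy5 and with the clone in Cy3 nevertheless correlated at -0.11 in Dll1 clone liver, -0.82 in wildtype clone liver, -0.41 in Dll1 clone spleen and -0.49 in wildtype clone spleen, as a description across genes that share arrays and probes. Over all features the correlations were -0.25, -0.71, -0.30 and -0.38 in the same order, so the opposition was not particular to the 73 genes. Values with the sign of the Cy3 arrays turned, called the turned reading, are therefore given for the medians, the classes of subunits and the leading genes, while the counts over mice, the remaining genes and the other lists are as deposited only. Liver arrays had medians over all probes of -0.067 to 0.042 and 59 to 230 missing values, and spleen arrays had medians of -0.054 to 0.079 and 248 to 2859 missing values. Only ratios were analysed, so levels could not be compared between genes or the organs checked against their markers. In whole organs, fewer cells of a type and less RNA per cell cannot be told apart.

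In liver, the oxidative phosphorylation genes lay slightly below their pools in clones of both genotypes. The median over the 73 genes was -0.038, -0.070, -0.0022 and -0.059 in the 4 Dll1 clone livers. In the 4 wildtype clone livers it was -0.082, -0.015, -0.053 and -0.023. All 8 livers were on the negative side, and the values of the genotypes overlapped. By group mean, 53 of 73 genes (72.6%) lay below 0 in Dll1 clone liver and 50 of 73 (68.5%) in wildtype clone liver, where 52% and 45.1% of all features did. The median over all features was -0.0035 in Dll1 clone liver and 0.0075 in wildtype clone liver. In spleen no such side was seen in Dll1 clones, whose 4 medians were 0.055, -0.048, -0.054 and 0.035, while the 4 wildtype clone spleens had -0.041, -0.0065, -0.033 and -0.042. There, 33 of 70 tested genes (47.1%) lay below 0 in Dll1 clones and 45 of 72 (62.5%) in wildtype clones, against 49% and 46.8% of all features.

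No single gene passed an adjusted p of 0.05 by limma, fitted over all features, in any comparison of the values as deposited. The share of all features that passed was 0% in Dll1 clone liver, 0.0826% in wildtype clone liver, 0.154% for the mean of both genotypes in liver, and 0% in Dll1 clone spleen, wildtype clone spleen and the mean of both spleens. At an unadjusted p under 0.05, 5 genes were lower and 2 higher in Dll1 clone liver, where 5.64% and 3.67% of all features were. In wildtype clone liver 7 were lower and 1 higher, against 4.31% and 4.65% of all features. For the mean of both genotypes in liver 13 were lower and 1 higher, against 7.46% and 5.63%. In Dll1 clone spleen 1 was lower and 2 were higher, against 5.07% and 5.01%, and in wildtype clone spleen 1 was lower and 0 were higher, against 1.6% and 2.03%. For the mean of both spleens 38 of 70 genes lay below 0, beside 48.1% of all features, and 3 were lower and 0 higher at that p, against 3.88% and 4.04%. The labels call the 4 clones of a group biological replicates, and the p-values measure the spread between them, not that of the pools.

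The opposite reading of the dyes gave another picture in liver. With the arrays that carry the clone in Cy3 turned, 41 of 73 genes passed in wildtype clone liver, 21 of them higher and 20 lower, a share of 56.2% beside 54.7% of all features. The members' median was then 0.012. In Dll1 clone liver 5 genes passed, all lower, beside 4.91% of all features, and the median was -0.0061. The genes below 0 then numbered 37 of 73 in Dll1 clone liver and 36 of 73 in wildtype clone liver, where 40.7% and 43.5% of all features were. The median of wildtype clone liver thus changed its sign with the reading of the dyes, and that of Dll1 clone liver came closer to 0. Turning also moved all features upward. Their median was 0.044 in Cy5 and -0.029 in Cy3 in wildtype clone liver, and 0.013 and -0.027 in Dll1 clone liver. The turned share of the 73 genes below 0, at 50.7% in Dll1 and 49.3% in wildtype clone liver, stayed above that of all features.

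**Figure D1:**
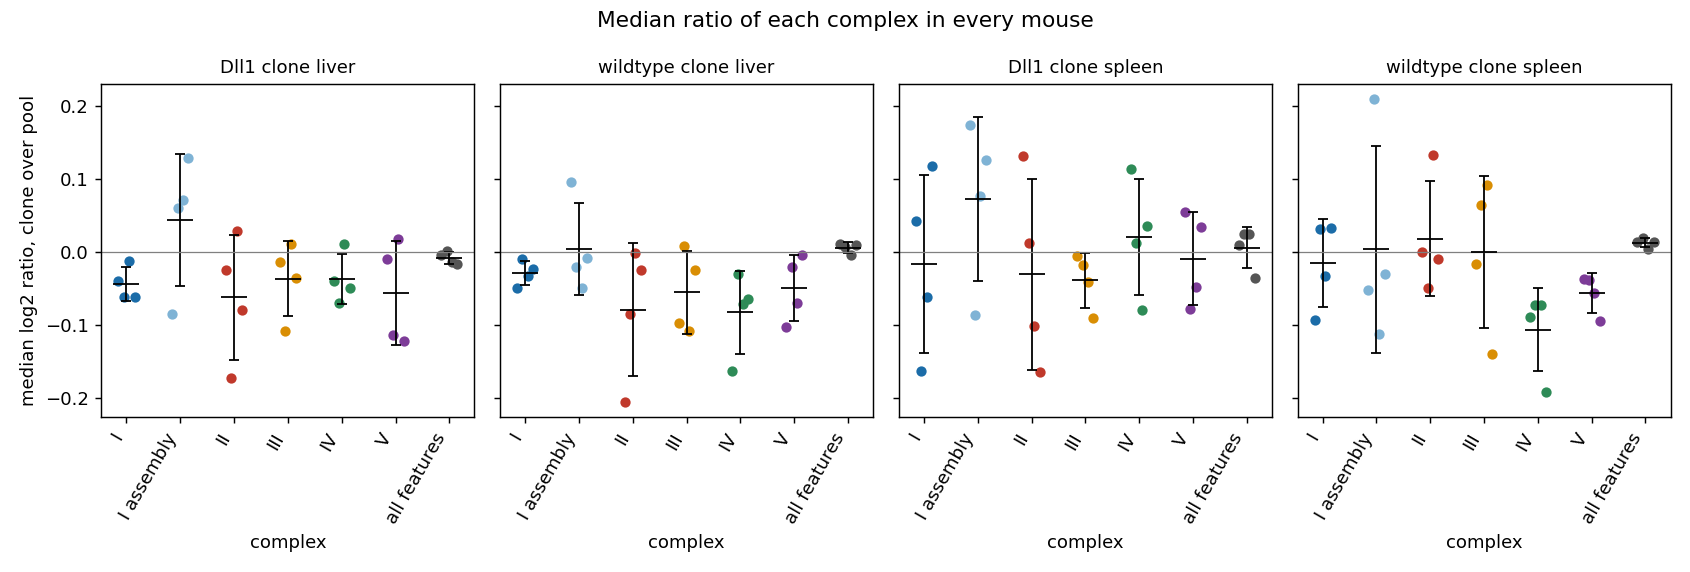
Median log2 ratio of clone over pool over the genes of each complex in each mouse (points), with the mean and SD over 4 mice (bars), in the 4 groups, beside the median over all features. In wildtype clone liver the 4 medians of complex IV lie between -0.16 and -0.031, all below those of all features, and in both spleens the points of most complexes spread to both sides of 0.

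Complex by complex, the liver medians were mostly below 0 with the values as deposited. Complex IV averaged -0.037 ± 0.034 in Dll1 clone liver and -0.083 ± 0.057 in wildtype clone liver (mean and SD of the per-mouse medians, n = 4 each). Complex V averaged -0.057 ± 0.071 in Dll1 clones and -0.050 ± 0.046 in wildtype clones. Complex I, with the most subunits, averaged -0.044 ± 0.024 in Dll1 clones and -0.029 ± 0.017 in wildtype clones. Complex III averaged -0.037 ± 0.052 in Dll1 clones and -0.056 ± 0.057 in wildtype clones, and complex II -0.063 ± 0.086 in Dll1 clones and -0.079 ± 0.092 in wildtype clones. The 4 complex I assembly factors averaged 0.044 ± 0.091 in Dll1 clones and 0.0044 ± 0.063 in wildtype clones. The complexes overlapped one another in each genotype, and no difference between them was tested. In spleen complex IV averaged 0.021 ± 0.080 in Dll1 clones and -0.11 ± 0.057 in wildtype clones, with mouse 4 far below the other 3. Complex III in Dll1 clone spleen had a mean per-mouse median of -0.039 but a median of group means of 0.036, so it had no settled side.

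Several of these signs changed with the Cy3 arrays turned. Complex IV then averaged 0.0091 ± 0.030 in Dll1 clone liver and 0.019 ± 0.048 in wildtype clone liver, and complex II -0.013 ± 0.052 in Dll1 clone liver and 0.075 ± 0.031 in wildtype clone liver. Complex I averaged -0.014 ± 0.019 in Dll1 clones and 0.023 ± 0.035 in wildtype clones, and complex V 0.0026 ± 0.056 in Dll1 clones and -0.0066 ± 0.035 in wildtype clones. Complex III kept its side in wildtype clone liver, at -0.11 ± 0.055. In Dll1 clone liver it averaged -0.0051 ± 0.018 but had a median of group means of 0.021, so it had no settled side there. In spleen complex IV averaged -0.020 ± 0.013 in Dll1 clones and 0.080 ± 0.064 in wildtype clones. The order of the complexes therefore rests on the reading of the dyes.

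Over the 73 genes the group means of Dll1 and wildtype clone liver, which used different pools, correlated at 0.37 (Pearson) and 0.46 (Spearman). This is a description across genes that share an array design, and over all features the Pearson value was 0.13. In spleen the same values were -0.17 (Pearson) and 0.011 (Spearman). With the Cy3 arrays turned they were 0.21 and 0.14 in liver and 0.68 and 0.71 in spleen, beside a Pearson value over all features of 0.030 in liver and 0.49 in spleen, so the organ with the closer genotypes also depends on the reading. With the values as deposited, both means lay below 0 in liver in 40 genes (54.8%), which held for 28.1% of all features. In spleen 20 genes (27.4%) were then below 0 in both genotypes, beside 24.5% of all features. In the turned reading these were 19 of 73 genes in liver, beside 17.3% of all features, and 30 of 73 in spleen, beside 31.1%. The organ with more such genes thus changed with the reading. Over the 4 groups, 10 genes (13.7%) had a mean below 0 in every one as deposited, beside 5.73% of all features.

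**Figure D2:**
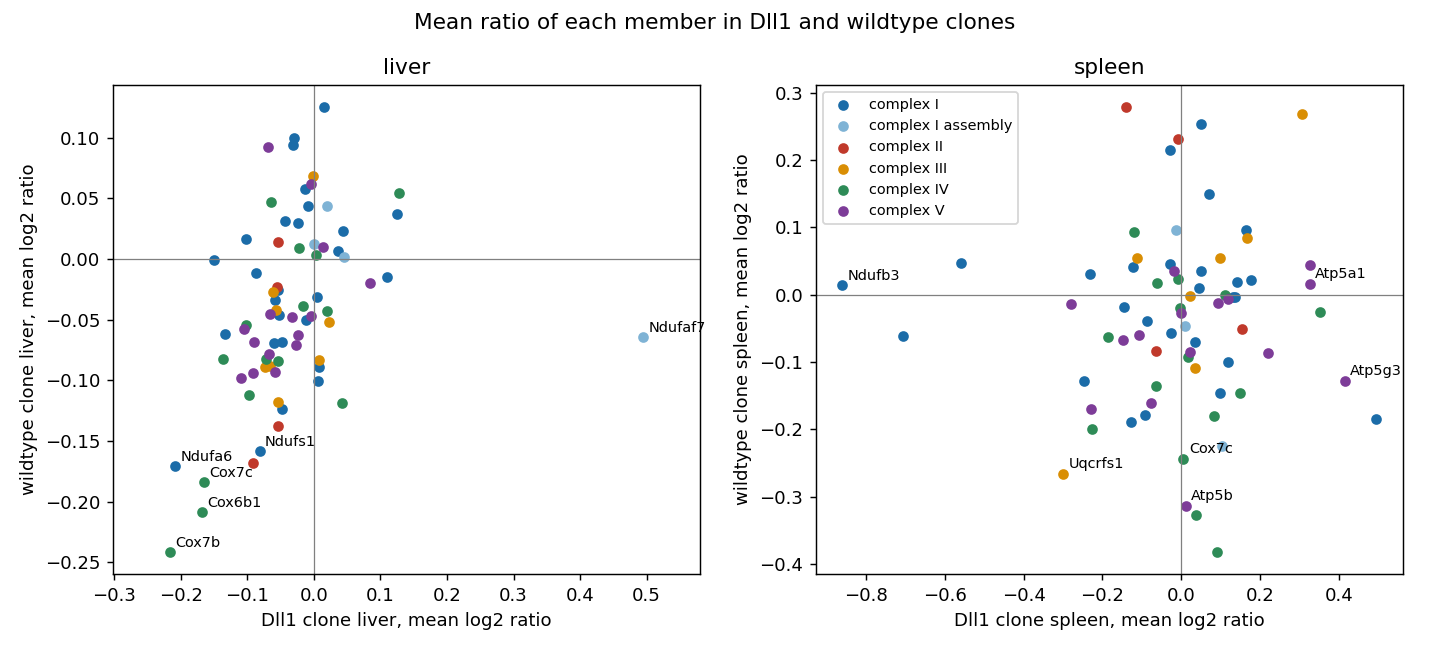
Mean log2 ratio of clone over pool of each gene in Dll1 clones (horizontal axis) and wildtype clones (vertical axis), in liver (left) and spleen (right), coloured by complex, for genes measured in at least 3 mice of each group. In liver Cox7b, Cox6b1, Cox7c and Ndufa6 lie at the lower left, and Ndufaf7 stands apart at 0.49 in Dll1 clones.

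Ndufa6 had the smallest p of the 73 genes for the mean of both genotypes in liver. It encodes an accessory subunit of the LYR family at the matrix arm of complex I. Its ratio was -0.12, -0.28, -0.067 and -0.37 in the Dll1 clone livers and -0.28, -0.11, -0.19 and -0.10 in the wildtype clone livers. All 8 livers were below 0, and the genotypes overlapped. The mean of both genotypes was -0.19 ± 0.040 (SE), a difference of -12.3%, with an adjusted p of 0.139 by limma. In Dll1 clone liver both orientations were negative, at -0.057 in Cy5 and -0.36 in Cy3, as they were in wildtype clone liver, at -0.066 and -0.28. Because the Cy3 value was the larger in size, turning it gave a mean of 0.13 ± 0.030 (SE) and a call as higher in the clone (limma adjusted p = 0.00795), where 42.4% of all features passed. The direction of Ndufa6 in liver is thus unsettled.

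3 subunits of complex IV followed it. Cox7b, a small membrane subunit, had -0.20, -0.34, -0.015 and -0.31 in Dll1 clone livers and -0.53, -0.0017, -0.17 and -0.26 in wildtype clone livers. Its mean over both genotypes was -0.23 ± 0.057 (SE; limma adjusted p = 0.187), and both of its probes were negative in each genotype. With the clone in Cy3 the Dll1 livers averaged 0.025, whereas with the clone in Cy5 they averaged -0.25. Cox7c, another small membrane subunit, had 0.032, -0.39, -0.13 and -0.18 in Dll1 clone livers and -0.34, -0.040, -0.18 and -0.18 in wildtype clone livers. 7 of 8 livers were below 0, and the mean was -0.17 ± 0.047 (SE; limma adjusted p = 0.204). Cox6b1, which faces the cytochrome c side of the complex and is named here after its values were seen, had -0.040, -0.33, 0.043 and -0.34 in Dll1 clone livers and -0.30, -0.031, -0.29 and -0.22 in wildtype clone livers. Its mean was -0.19 ± 0.051 (SE; limma adjusted p = 0.204), its 2 probes gave -0.17 and -0.16 in Dll1 clone liver and -0.24 and -0.17 in wildtype clone liver, and its orientation means were negative in both genotypes. Under the turned reading, Cox6b1 stayed lower, at -0.11 ± 0.032 (SE; limma adjusted p = 0.0197), while Cox7b was at 0.054 ± 0.028 (SE; limma adjusted p = 0.147) and Cox7c at 0.035 ± 0.034 (SE; limma adjusted p = 0.422).

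**Figure D3:**
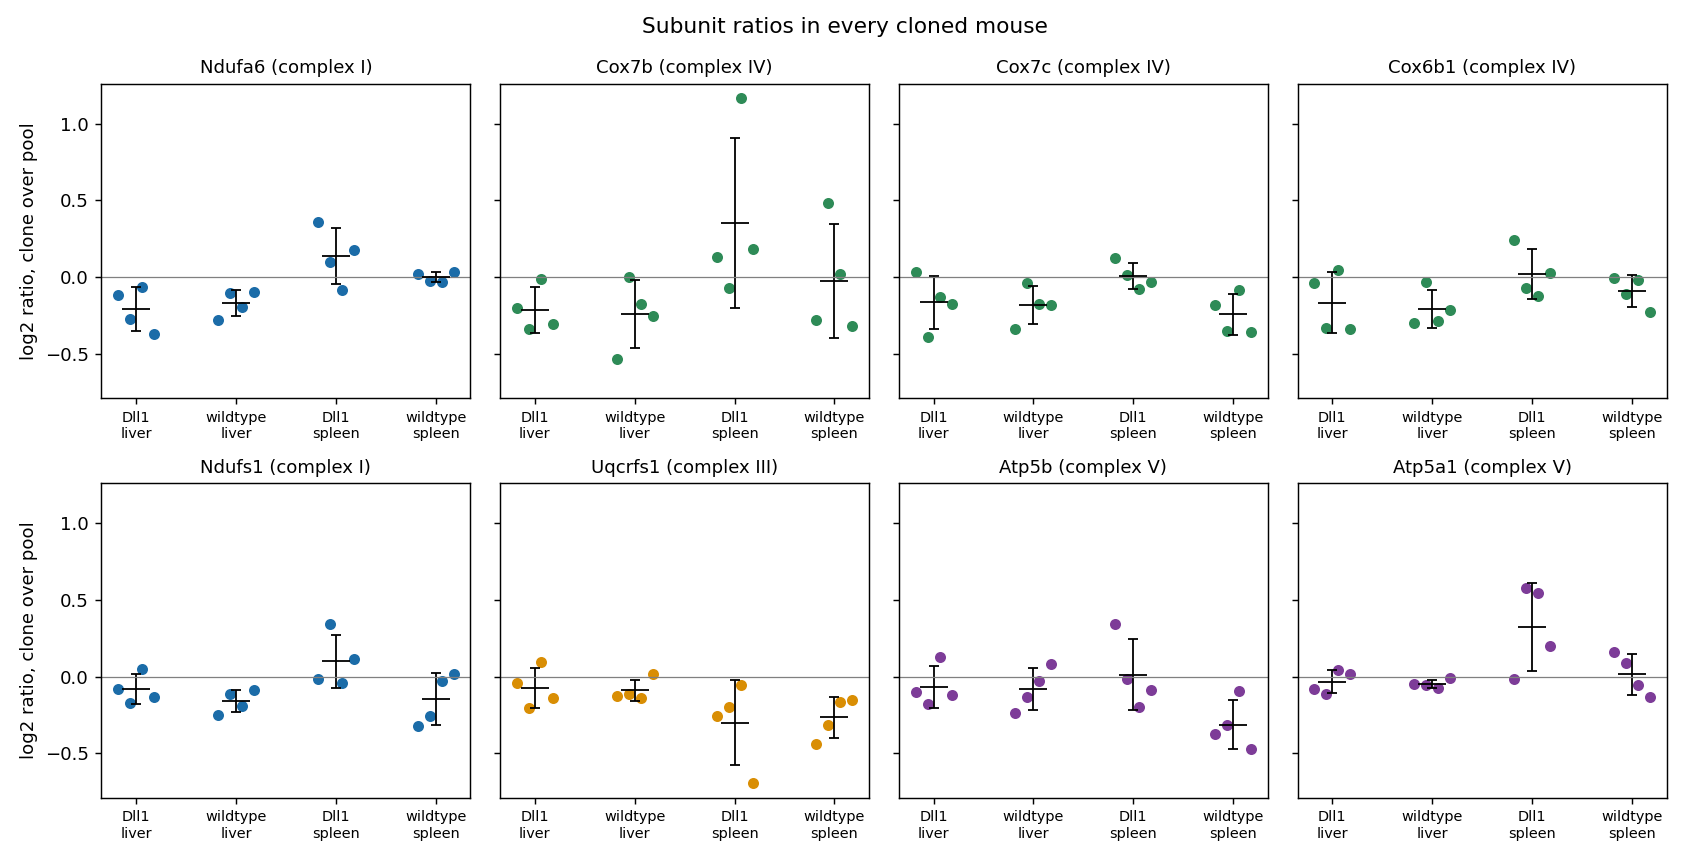
Log2 ratio of clone over pool of 8 subunits in every mouse (points), with the mean and SD of each group (bars), 4 mice per group. Ndufa6 lies below 0 in all 8 livers and Uqcrfs1 in all 8 spleens, while Atp5b lies below 0 in all 4 wildtype clone spleens, at a mean of -0.31, and on both sides of 0 in Dll1 clone spleens.

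The windows from 250 bases before to 50 after the annotated start of these 4 genes are shown because the genes had the 4 smallest p-values for the mean of both livers. They are RefSeq sequences of GRCm38.p6, printed 5′ to 3′ on the strand of the gene. Capitals mark a match to 1 of 3 motifs of factors known to act on respiratory genes, searched on both strands: NRF1 (its consensus of GC-rich repeats, with 1 open position), the ETS family (CCGGAAG) and YY1 (AAGATGGCG). Cox7b lies at chrX:106015450-106015749 on the plus strand, Cox7c at chr13:86046746-86047045, Cox6b1 at chr7:30626065-30626364 and Ndufa6 at chr15:82354242-82354541, all 3 on the minus strand.
Cox7b: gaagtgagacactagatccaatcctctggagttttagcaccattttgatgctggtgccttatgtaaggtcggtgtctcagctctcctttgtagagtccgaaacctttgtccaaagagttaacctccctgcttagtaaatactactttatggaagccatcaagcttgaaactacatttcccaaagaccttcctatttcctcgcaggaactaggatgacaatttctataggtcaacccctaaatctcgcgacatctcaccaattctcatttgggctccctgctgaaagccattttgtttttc
Cox7c: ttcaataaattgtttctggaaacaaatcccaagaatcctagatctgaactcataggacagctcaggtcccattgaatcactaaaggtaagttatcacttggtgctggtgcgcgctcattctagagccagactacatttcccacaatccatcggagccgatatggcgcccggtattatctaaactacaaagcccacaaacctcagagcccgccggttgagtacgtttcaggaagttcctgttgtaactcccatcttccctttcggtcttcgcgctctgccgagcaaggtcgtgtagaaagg
Cox6b1: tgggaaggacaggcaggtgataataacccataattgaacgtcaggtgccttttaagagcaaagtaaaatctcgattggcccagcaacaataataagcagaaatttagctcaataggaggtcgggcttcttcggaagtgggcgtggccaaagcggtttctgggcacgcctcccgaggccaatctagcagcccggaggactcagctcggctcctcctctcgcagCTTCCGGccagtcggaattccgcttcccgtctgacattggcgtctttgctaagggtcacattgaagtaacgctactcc
Ndufa6: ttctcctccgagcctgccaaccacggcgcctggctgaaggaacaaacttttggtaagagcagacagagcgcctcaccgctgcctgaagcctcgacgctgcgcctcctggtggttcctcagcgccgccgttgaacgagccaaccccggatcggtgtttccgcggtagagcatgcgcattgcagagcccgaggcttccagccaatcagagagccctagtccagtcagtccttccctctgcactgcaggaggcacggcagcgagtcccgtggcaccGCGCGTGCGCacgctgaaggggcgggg
The Cox6b1 window held the ETS letters, read on the opposite strand, and the Ndufa6 window the NRF1 letters, while neither the Cox7b nor the Cox7c window held any of the 3. A match in these letters is a description and not a site.

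Of the 73 genes, 61 had a promoter window, and 31 of these (50.8%) held at least 1 of the 3 motifs, beside 15.1% of 27025 genes. The NRF1 letters stood in 14 (23%), beside 5.19% of all genes, the ETS letters in 16 (26.2%), beside 9.93%, and the YY1 letters in 6 (9.84%), beside 1.64%. By complex, 10 of 13 windows of complex V and 3 of 3 of complex II held a motif, against 10 of 24 of complex I, 3 of 5 of complex III and 3 of 12 of complex IV. YY1 letters were found in complexes I and V, in 4 and 2 windows.

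In complex I, the core subunits carry the flavin and the iron-sulfur clusters and the accessory ones surround them. Ndufs1, the largest core subunit, had -0.080, -0.17, 0.052 and -0.13 in Dll1 clone livers and -0.25, -0.11, -0.19 and -0.084 in wildtype clone livers. It was below 0 in 7 of 8 livers, and its mean over both was -0.12 ± 0.033 (SE; limma adjusted p = 0.209). After turning the Cy3 signs the mean was 0.085 ± 0.036 (SE; limma adjusted p = 0.0793), and in wildtype clone liver Ndufs1 was called higher, at 0.15 (limma adjusted p = 0.0325). The core subunit Ndufv1, which binds the flavin, averaged -0.048 ± 0.073 in Dll1 clone liver and -0.12 ± 0.18 in wildtype clone liver (SD, n = 4 each). Ndufs7, which holds the cluster next to the quinone site, averaged -0.013 ± 0.11 in Dll1 clone liver and 0.058 ± 0.087 in wildtype clone liver. None of these 4 means exceeded its SD.

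Spleen gave complex I wider values. Ndufb9, a membrane-arm accessory subunit, was -0.085, -0.16, -0.32 and -0.42 in Dll1 clone spleens and -0.038, -0.25, -0.12 and -0.11 in wildtype clone spleens. It was thus below 0 in all 8 spleens, at a mean of -0.19 ± 0.080 (SE; limma adjusted p = 0.629). With the Cy3 arrays turned it was below 0 in all 8 and was called lower, at -0.37 ± 0.069 (SE; limma adjusted p = 0.0158), where 12.7% of all features passed. Its orientations took opposite signs, at -0.83 in Cy5 and 0.34 in Cy3 in Dll1 clone spleen and -0.29 and 0.030 in wildtype clone spleen. In the turned reading Ndufb9 was also below 0 in all 8 livers. There it was called lower at -0.48 (limma adjusted p = 0.000344), where 42.4% of all features passed. Ndufb3, another membrane-arm subunit, had the smallest p of complex I in Dll1 clone spleen, but its 4 values of 0.086, -2.53, -0.71 and -0.29 rested mainly on mouse 2. Ndufa13, also known as GRIM-19, had 0.19, -0.17, -0.017 and -0.12 in Dll1 clone spleens and 0.11, -0.032, 0.23 and 0.55 in wildtype clone spleens, in each case on both sides of 0. Of the assembly factors, Ndufaf7, a methyltransferase that acts on a core subunit, had -0.11, 0.52, 0.65 and 0.92 in Dll1 clone livers and -0.40, 0.16, 0.28 and -0.29 in wildtype clone livers, and in spleen it was measured in too few mice to be tested.

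In complex II, Sdha carries the flavin, Sdhb the iron-sulfur clusters, and Sdhc and Sdhd anchor them in the membrane. Sdhd had 0.12, -0.30, -0.019 and -0.013 in Dll1 clone livers and -0.20, -0.12, -0.14 and -0.083 in wildtype clone livers, the last 4 all below 0. In spleen it had 0.12, 0.15, -0.21 and -0.090 in Dll1 clones and 0.54, 0.22, 0.19 and -0.022 in wildtype clones. Sdha averaged -0.092 ± 0.20 in Dll1 clone liver and -0.17 ± 0.26 in wildtype clone liver, and Sdhc -0.054 ± 0.049 in Dll1 clone liver and 0.014 ± 0.041 in wildtype clone liver (SD, n = 4 each). Sdhb averaged -0.055 ± 0.10 in Dll1 clone liver and -0.023 ± 0.14 in wildtype clone liver, and none of these means of Sdha and Sdhb exceeded its SD.

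In complex III, Uqcrfs1 encodes the Rieske iron-sulfur protein. It had -0.25, -0.20, -0.052 and -0.70 in Dll1 clone spleens and -0.44, -0.31, -0.16 and -0.15 in wildtype clone spleens, below 0 in 8 of 8. The mean was -0.28 ± 0.096 (SE), a difference of -17.8%, with an adjusted p of 0.530 by limma. A fit of both organs together gave an adjusted p of 0.0303 for it in limma, where 4.35% of all features passed. That fit shares the spread between the organs, so it may understate the error in spleen. The median SD over all features was 0.42 in Dll1 and 0.27 in wildtype clone spleen, beside 0.11 and 0.087 in liver. Under the turned reading the mean of Uqcrfs1 in spleen was -0.20 ± 0.14 (SE; limma adjusted p = 0.359). In liver the same gene averaged -0.073 ± 0.13 in Dll1 clones and -0.089 ± 0.070 in wildtype clones. Of the core proteins, Uqcrc1 averaged -0.056 ± 0.081 in Dll1 clone liver and -0.042 ± 0.047 in wildtype clone liver, and Uqcrc2 -0.053 ± 0.25 in Dll1 clone liver and -0.12 ± 0.11 in wildtype clone liver. Cyc1, cytochrome c1, averaged 0.0070 ± 0.053 in Dll1 clone liver and -0.084 ± 0.089 in wildtype clone liver, and its 2 probes took opposite signs in Dll1 clone spleen, at 0.42 and -0.60.

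Complex IV divides into subunits found in all tissues and isoforms known from muscle, heart or testis. This division was made after the values were seen and is a description only. Of the 10 common subunits, 9 were below 0 in Dll1 clone liver and 7 in wildtype clone liver, with medians of -0.085 in Dll1 clones and -0.083 in wildtype clones. Of the 5 isoforms, 2 were below 0 in Dll1 clone liver, at a median of 0.020, and 4 in wildtype clone liver, at -0.043. After turning the Cy3 signs, 7 of the 10 common subunits were below 0 in Dll1 clone liver, at a median of -0.026, and 5 in wildtype clone liver, at 0.0013. Of the isoforms 2 were then below 0 in Dll1 clone liver, at 0.071, and 1 in wildtype clone liver, at 0.17. Cox4i1, the common form of subunit 4, averaged -0.072 ± 0.048 in Dll1 clone liver and -0.082 ± 0.11 in wildtype clone liver, with mouse 1 of the Dll1 group far below the other 3. Cox5a averaged -0.098 ± 0.18 in Dll1 clone liver and -0.11 ± 0.054 in wildtype clone liver, and Cox5b 0.0025 ± 0.11 in Dll1 clone liver and 0.0032 ± 0.069 in wildtype clone liver. Cox5b thus stayed near 0 as an average, but in wildtype clone liver it stood at -0.48 with the clone in Cy5 and 0.49 with the clone in Cy3.

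Isoform pairs are given side by side, and no difference between the forms was tested. The common Cox6a1 averaged -0.022 ± 0.064 and the muscle form Cox6a2 -0.10 ± 0.11 in Dll1 clone liver, against 0.0091 ± 0.023 and -0.054 ± 0.085 in wildtype clone liver, and mouse 4 of the Dll1 group carried most of the Cox6a2 value. The common Cox8a averaged -0.064 ± 0.095 and the muscle form Cox8b -0.016 ± 0.050 in Dll1 clone liver, against 0.047 ± 0.044 and -0.039 ± 0.036 in wildtype clone liver. Cox7a2, the form known from liver, had -0.19, -0.14, -0.086 and 0.21 in Dll1 clone livers and -0.099, -0.062, -0.072 and -0.10 in wildtype clone livers, below 0 in 7 of 8. In spleen Cox7a2 was 0.13, -0.27, -0.47 and -0.31 in Dll1 clones and -0.23, -0.12, -0.084 and -0.36 in wildtype clones, again below 0 in 7 of 8. Cox7c was 0.12, 0.013, -0.080 and -0.032 in Dll1 clone spleens, around 0, and -0.18, -0.35, -0.083 and -0.36 in wildtype clone spleens, all below 0.

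In complex V, the F1 sector makes ATP and is tied to the membrane sector by a central and a peripheral stalk. The catalytic subunit Atp5b had 0.34, -0.015, -0.19 and -0.085 in Dll1 clone spleens, with values on both sides of 0. In wildtype clone spleens it had -0.38, -0.31, -0.092 and -0.47, all below 0, at a mean of -0.31 ± 0.13 (SE; limma adjusted p = 0.9999). Its partner in the F1 hexamer, Atp5a1, had -0.017, 0.58, 0.55 and 0.20 in Dll1 clone spleens, at a mean of 0.33 ± 0.14 (SE; limma adjusted p = 0.477), and stood at 0.16, 0.089, -0.057 and -0.13 in wildtype clone spleens. That mean rests mainly on 1 of 3 probes, which averaged 0.68 beside 0.065 and 0.11 for the others. The fit of both organs together gave it an adjusted p of 0.0477 in limma, where 7.03% of all features passed. The same limit on the error in spleen applies as for Uqcrfs1. In the turned reading both signs changed, to -0.29 for Atp5a1 in Dll1 clone spleen and 0.013 for Atp5b in wildtype clone spleen.

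Atp5g3, a gene of the proton-carrying ring, had 0.57, 0.27 and 0.41 in the 3 Dll1 clone spleens where it was measured and 0.12, -0.24 and -0.27 in the 3 wildtype clone spleens. In liver the F1 subunits were below 0 in 5 of 5 genes in Dll1 clones and 4 of 5 in wildtype clones, a division again made after the values were seen. With the Cy3 arrays turned the counts were 4 of 5 in Dll1 clones and 3 of 5 in wildtype clones. Atp5b averaged -0.068 ± 0.13 in Dll1 clone liver and -0.078 ± 0.14 in wildtype clone liver, and Atp5a1 -0.034 ± 0.075 in Dll1 clone liver and -0.048 ± 0.028 in wildtype clone liver. Atp5l, of the membrane sector, and Atp5h, of the peripheral stalk, had the smallest p of complex V in the livers, Atp5l in Dll1 clones and Atp5h in wildtype clones. Atp5l averaged -0.090 ± 0.075 in Dll1 clones and -0.068 ± 0.055 in wildtype clones, and Atp5h -0.092 ± 0.071 in Dll1 clones and -0.094 ± 0.13 in wildtype clones. Atp5o, also of the peripheral stalk, was near 0 in liver and had -0.088, -0.17, -0.20 and -0.14 in Dll1 clone spleens, all below 0. In wildtype clone spleen all 10 stalk and membrane subunits had a mean below 0, with a median of -0.063. In the turned reading 2 of these 10 were below 0 and the median was 0.14.

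**Figure D4:**
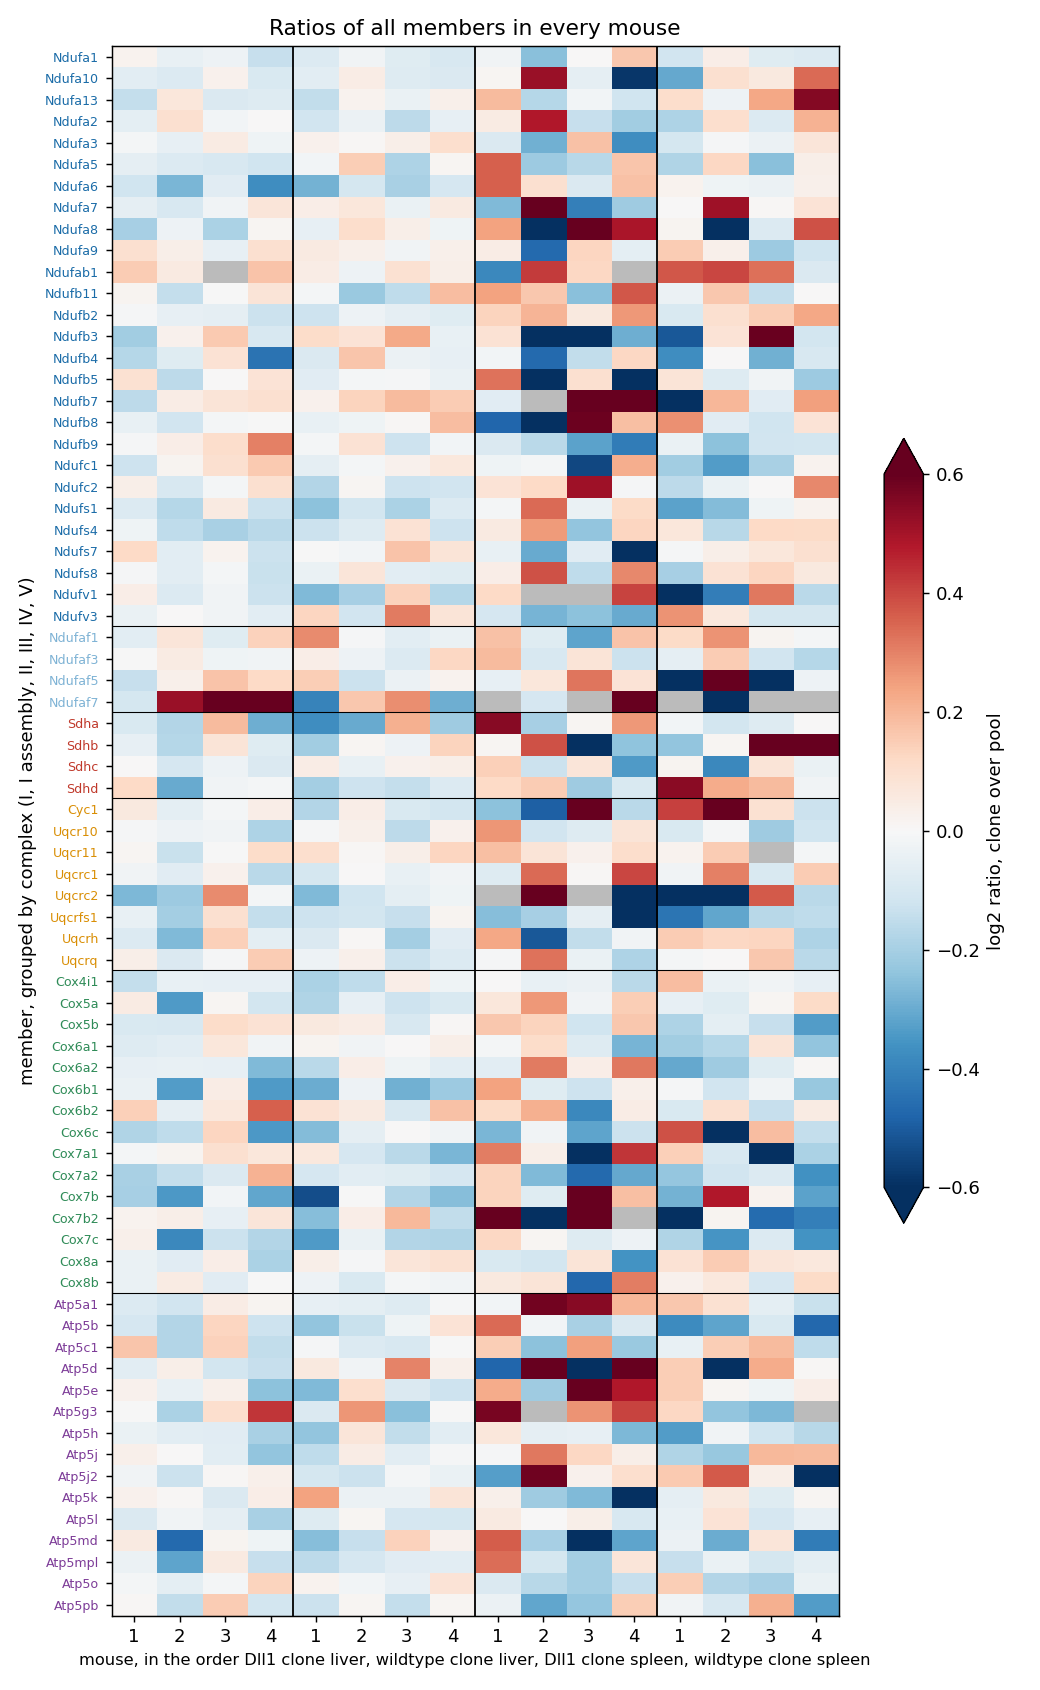
Log2 ratio of clone over pool of all 73 genes (down the page, grouped by complex) in each of the 16 mouse and organ combinations, with red for higher and blue for lower in the clone, colours saturated at 0.6 in size and missing values in grey. The liver columns are pale, with a median SD between mice of 0.10 in Dll1 clones and 0.085 in wildtype clones, and the spleen columns stronger, with 0.24 and 0.16.

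Agreement within a group was then counted gene by gene. In Dll1 clone liver 12 of 72 genes measured in 4 mice (16.7%) were lower in all 4 and 0 were higher in all 4, beside 9.92% and 5.83% of all features. In wildtype clone liver 18 of 73 (24.7%) were lower and 3 (4.11%) higher in all 4, beside 8.99% and 11.7%. The spleens had 6 of 66 lower (9.09%) and 2 higher (3.03%) in Dll1 clones, beside 7.61% and 8.81%, and 10 of 70 lower (14.3%) and 2 higher (2.86%) in wildtype clones, beside 7.03% and 9.25%. Ndufa6, Ndufb2 and Cox7b were the genes lower in all 4 mice of both liver groups, Ndufb2 being named after its values were seen. Ndufb9 and Uqcrfs1 were those lower in all 4 mice of both spleen groups.

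In the test of the difference between the genotypes, Dll1 minus wildtype, none of the genes passed an adjusted p of 0.05 in limma, with 0% of all features passing in liver and 0% in spleen. At an unadjusted p under 0.05, 0 genes were lower and 1 was higher in Dll1 than in wildtype clones in liver, beside 3.12% and 1.7% of all features. The same counts of 0 and 1 held in spleen, beside 2.41% and 2.08%. The difference was below 0 in 33 of 73 genes in liver and 27 of 70 in spleen, beside 55% and 50.9% of all features. The gene in liver was Ndufaf7, at a difference of 0.56 ± 0.22 (SE; limma adjusted p = 0.934). Next came Cox7a1, a muscle form, which had -0.0095, 0.014, 0.095 and 0.067 in Dll1 clone livers and 0.062, -0.10, -0.16 and -0.27 in wildtype clone livers, a difference of 0.16 ± 0.074 (SE; limma adjusted p = 0.934). It rests mainly on 1 of 2 probes, which averaged 0.015 in Dll1 clone liver and -0.28 in wildtype clone liver. The other probe averaged 0.075 and 0.047. In spleen the gene was Atp5g3, at 0.54 ± 0.22 (SE; limma adjusted p = 0.886), followed by Atp5b at 0.33 ± 0.18 (SE; same adjusted p). Under the turned reading the differences were -0.058 for Ndufaf7 and -0.082 for Cox7a1 in liver, and 0.61 for Atp5g3 and -0.15 for Atp5b in spleen. Each genotype was set against its own pool, so a difference between the pools cannot be told apart from one between the clones.

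Between the organs of the same mice, liver minus spleen, no gene passed in limma either. In Dll1 clones 5 genes were lower and 1 higher at an unadjusted p under 0.05, beside 7.57% and 6.51% of all features, with 0.0883% passing the adjusted threshold. In wildtype clones 1 was lower and 0 were higher, beside 3.37% and 2.77%, with 0% passing. These fits did not use the pairing of organs within a mouse. Ndufb9 had the smallest p in Dll1 clones, at a difference of 0.36 ± 0.11 (SE; limma adjusted p = 0.189), from a mean of 0.11 in liver and -0.25 in spleen. Ndufa6 followed at -0.35 ± 0.11 (SE; limma adjusted p = 0.207), from -0.21 in liver and 0.14 in spleen. In wildtype clones Sdhd had -0.37 ± 0.14 (SE; limma adjusted p = 0.616) and Ndufa13 -0.25 ± 0.13 (SE; limma adjusted p = 0.876). After turning the Cy3 signs, Ndufb9 differed by 0.36 in Dll1 clones (limma adjusted p = 0.0446, where 4.3% of all features passed) and Ndufa6 by -0.14, while in wildtype clones Sdhd differed by -0.063 and Ndufa13 by 0.22. With the mouse as a block, 0 of all features passed in Dll1 clones, where 14 passed without it, and again 0 of the 73 genes. Cox7b then had the smallest p in Dll1 clones, at -0.57 ± 0.18 (SE; limma adjusted p = 0.415). That difference rests mainly on 1 probe of Cox7b, which averaged 0.98 in Dll1 clone spleen and -0.21 in Dll1 clone liver. The other probe averaged -0.011 in Dll1 clone spleen and -0.20 in Dll1 clone liver. The block widened the SE of Ndufb9, at 0.36 ± 0.14 (SE; limma adjusted p = 0.431).

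**Figure D5:**
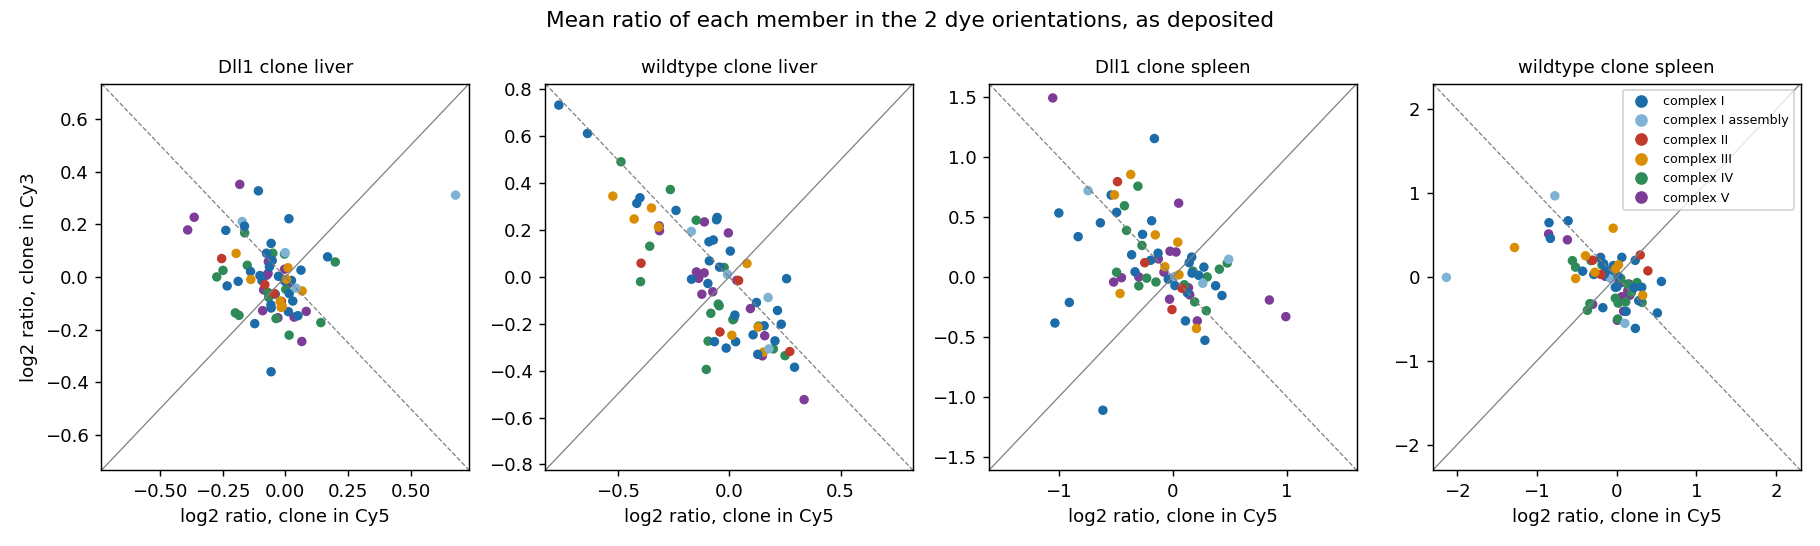
Mean log2 ratio of each gene with the clone in Cy5 (horizontal axis) and in Cy3 (vertical axis) in the 4 groups, coloured by complex, with the line of equal values (solid) and of opposite values (dashed). In wildtype clone liver the genes follow the dashed line, at a correlation of -0.82, and in Dll1 clone liver they scatter, at -0.11. Over all features the correlation was -0.71 in wildtype clone liver and -0.25 in Dll1 clone liver.

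The 2 dye orientations had the same sign in 32 of 73 genes in Dll1 clone liver, 16 in wildtype clone liver, 27 in Dll1 clone spleen and 15 in wildtype clone spleen. The widest splits in wildtype clone liver were those of Ndufb9, at -0.76 in Cy5 and 0.73 in Cy3, and Ndufa5, at -0.64 and 0.61, which were named after these values were seen. Ndufaf1, an assembly factor also named after its values were seen, split the same way in both spleens, at -0.74 and 0.72 in Dll1 clones and -0.77 and 0.97 in wildtype clones. Ndufa6, Cox7c, Cox6b1 and Ndufs1 were negative in both orientations in the livers of both genotypes. So were other genes, among them Cox4i1 and Sdhd. Of 21 genes with several probes, 12, 11, 5 and 9 had probes of 1 sign in Dll1 clone liver, wildtype clone liver, Dll1 clone spleen and wildtype clone spleen.

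Lists of other mitochondrial genes were described in liver with the values as deposited only. For the mean of both genotypes in liver, 11 of 14 citrate cycle genes lay below 0, at a median of -0.045. At an unadjusted p under 0.05, 5 of the 14 were lower, beside 7.46% of all features. No gene of the lists in this paragraph passed the adjusted threshold there in limma. All 5 measured carriers and channels were below 0, at a median of -0.082, as were 12 of 16 assembly factors outside the rule, at -0.019. By genotype, 3 of the 5 carriers and channels were below 0 in Dll1 clone liver, at a median of -0.0016. In wildtype clone liver all 5 were, at -0.15. The mitochondrial ribosome did not share the side, with 24 of 61 genes below 0 and a median of 0.0088, and neither did the regulators of mitochondrial gene expression, with 3 of 11 below 0 and a median of 0.017. Over all features 47.4% were below 0 in this comparison, and 52 of the 73 genes (71.2%) were.

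Markers of several cell types also lay on one side of 0. Of 11 hepatocyte markers listed, 8 were measured, and all 8 lay below 0 in both liver groups. Their median was -0.042, -0.23, -0.073 and -0.20 in the 4 Dll1 clone livers, and -0.33, -0.090, -0.35 and -0.21 in the 4 wildtype clone livers. In each genotype the 2 livers with the lowest hepatocyte medians were also the 2 with the lowest medians of the 73 genes. In wildtype clone liver 1 of the 8 passed as lower in limma, beside 0.0826% of all features. It was Fga, a fibrinogen chain, at -0.49 ± 0.065 (SE; limma adjusted p = 0.0298). For the mean of both genotypes in liver 2 passed, beside 0.154% of all features. In spleen all 5 measured erythroid markers were below 0 in both groups, with medians over the genes of -0.76 in Dll1 clones and -0.64 in wildtype clones. By mouse the erythroid median was -0.235, -1.49, -0.93 and -0.12 in Dll1 clone spleens and -0.50, -0.37, -0.46 and -0.998 in wildtype clone spleens. B cell markers were above 0 in 4 of 5 in Dll1 clone spleen and 5 of 5 in wildtype clone spleen, with medians of 0.38 and 0.45. Of 6 cell division genes 5 were below 0 in each spleen group, at -0.37 in Dll1 clones and -0.61 in wildtype clones, and of 8 neutrophil markers 6 were below 0 in Dll1 clone spleen, at -0.55, and 3 in wildtype clone spleen, at 0.037. T cell markers were above 0 in 3 of 5 in Dll1 clone spleen, at 0.26, and 3 of 4 in wildtype clone spleen, at 0.20. Macrophage markers were above 0 in 3 of 4 in Dll1 clone spleen, at 0.18, and 4 of 4 in wildtype clone spleen, at 0.14. In both spleen groups 0 markers of these lists passed the adjusted threshold in limma, as did 0% of all features. The part of these cell types in the values of the 73 genes was not tested.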

How the data were processed

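The authors deposited 1 log2 ratio per probe and array, on 20794 probes and 32 arrays. How spots were normalized and filtered, and the build used, is not given in the sources used here; base 2 was inferred from the range of the values. Per the labels' protocols, 20 µg of total RNA per sample was labelled indirectly with Cy3 or Cy5. Values above 9 in size (1183, of which 7 on probes of the 73 genes) were taken as constants of empty spots and set to missing, which left a largest size of 8.34. Each value row was named by the probe 11 places earlier in the platform table, because probes of 1 gene then correlated at a mean of 0.0562 over 2258 pairs, beside -0.000694 under the names as given. A mouse's value was the mean of its 2 dye-swapped arrays, where both were measured, and probes of a gene were averaged. limma 3.58.1 in R 4.3.3 (lmFit and eBayes, Benjamini-Hochberg adjusted over all features) was fitted per organ with genotype, to features measured in at least 3 mice of each group, and the organ differences over all 16 values. The fits were tested on simulated data. Figures were drawn with matplotlib 3.10.9 in Python 3.11.15.

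The 73 genes, the lists and the tests were chosen with earlier results of these data known. The genes named are those with the smallest p of each complex in a group, the 2 with the smallest p in each difference, a list of catalytic and isoform subunits, and those whose naming after their values is stated. Liver and spleen came from the same animals, and their deviations from the group means correlated at 0.0016 to 0.093 over all features. The alternatives were the dye reading, the row names, the constants, array centring and scaling, the mouse and array minimums, single probes, current symbols, joint and single-array fits, blocks, and leaving out each mouse. Arrays give no counts, so their number limits the precision. Promoter windows came from RefSeq (GRCm38.p6), and 12 of the 73 genes had none in the table used.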

Additional observations from a re-analysis of the deposited data

Results flagged for a closer look

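Of 154 groups of 4 mice examined, over the genes named and the medians of the complexes, 7 held 1 mouse far from the other 3, where chance gives about 1 in 20. In liver, Cox4i1 of Dll1 clone mouse 1 stood at -0.14 beside -0.050 to -0.046 in the other mice. Cox6a2 of Dll1 clone mouse 4 stood at -0.27 beside -0.052 to -0.045. In spleen, Cyc1 of Dll1 clone mouse 3 stood at 2.13 beside -0.49 to -0.16, which carried its positive group mean. Ndufs7 of Dll1 clone mouse 4 was at -1.82 beside -0.30 to -0.044, and Cox5b of Dll1 clone mouse 3 at -0.12 beside 0.14 to 0.16. Cox4i1 of wildtype clone mouse 1 was at 0.19 beside -0.051 to -0.022. The complex IV median of wildtype clone spleen mouse 4 was -0.19 beside -0.090 to -0.073.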

How the results depend on the processing

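The number of the 73 genes that passed was 0 as reported and kept within 1.5 times of it in 156 of 168 alternative settings, and the median over the genes kept within 1 SD between mice in 154 of 168, as did those of the complexes in 929 of 1008. With the Cy3 arrays turned, the numbers that passed, with the share of all features in parentheses, were 5 in Dll1 clone liver (4.91%), 41 in wildtype clone liver (54.7%), 5 in Dll1 clone spleen (4.25%) and 1 in wildtype clone spleen (1.04%). They were 33 for the mean of both genotypes in liver (42.4%), 13 for that in spleen (12.7%), 31 for Dll1 minus wildtype in liver (41.3%), and 3 (4.3%) and 10 (14.1%) for liver minus spleen in Dll1 and wildtype clones. The medians then were -0.0061 in Dll1 clone liver, 0.012 in wildtype clone liver, -0.11 in Dll1 clone spleen, 0.0083 in wildtype clone spleen, -0.0073 and -0.059 for the means in liver and spleen, -0.092 for Dll1 minus wildtype in spleen and 0.075 for liver minus spleen in Dll1 clones. With the names taken without the shift of 11 places, other genes stand behind the medians, which were 0.019 in Dll1 clone liver, 0.014 in wildtype clone liver, 0.023 for the mean in liver and 0.047 for liver minus spleen in wildtype clones. With both organs in one fit, 1 gene passed in Dll1 clone spleen and 1 for the mean in spleen, Atp5a1 and Uqcrfs1. That joint fit may understate the error in spleen. With single arrays, a dye term and the mouse as a random block, 3 passed for the mean in liver, Ndufa6 (adjusted p = 0.00683), Cox7c (0.0384) and Cox6b1 (0.0387), where 1.31% of all features passed, but arrays of 1 mouse correlated at -0.33 in that fit. Leaving out 1 mouse at a time gave medians of -0.046 (without mouse 1) to 0.048 in Dll1 clone spleen and -0.043 (without mouse 4) to -0.023 in wildtype clone spleen, and 0 genes passed each time. With the mouse as replicate block 0 genes passed in liver minus spleen, and with the number in the titles, which only names samples (same-numbered livers correlated at -0.030 to 0.13), 0 passed in the genotype differences. Except where named, the cause of a change was not tested. Spleen arrays had more missing values than liver arrays.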
